A study of Mus musculus with 9 samples.

Results

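The unfolded protein response and the integrated stress response were examined in the midbrain of DJ-1-deficient mice through 10 genes: Eif2ak3, Atf6, Xbp1, Atf4, Ddit3, Trib3, Chac1, Asns, Sesn2 and Herpud1. They were taken by name for their place in these pathways and not for their measured values. Earlier results of these data were known when these genes were chosen. They are 10 of the 26602 genes with at least 1 count, and all 10 are among the 18127 genes tested. The samples were midbrain tissue including the substantia nigra pars compacta of mice 3 to 4 months old, 4 of them DJ-1+/+ and 5 DJ-1-/-, with 1 library per animal and no treatment. The DJ-1-/- mice carry a germline inactivation of DJ-1, in all cells, and the line had been backcrossed to C57BL/6. The DJ-1+/+ mice were littermates that shared cages with the DJ-1-/- mice. The libraries were 3′ mRNA-seq libraries with unique molecular identifiers (UMIs), in which each counted molecule is read near its polyadenylated end. A count therefore does not grow with transcript length, and values in cpm (counts per 1000000 counts of that library) can be set side by side between genes as counted molecules. How completely the molecules of each gene were counted was not measured, and an order of levels between genes is an order of counts.

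When unfolded proteins build up in the endoplasmic reticulum (ER), 3 membrane sensors respond: PERK (encoded by Eif2ak3), ATF6 and IRE1. PERK and the other eIF2alpha kinases, which sense amino acid shortage, double-stranded RNA and haem or mitochondrial stress, slow general translation and favour translation of ATF4. ATF4 then activates genes of amino acid supply, redox balance and cell death. IRE1 splices the Xbp1 mRNA, and ATF6 is cut in the Golgi; both products activate chaperone and degradation genes. Dopaminergic neurons of the substantia nigra are known for a heavy protein and redox load, and this pathway is much studied in Parkinson's disease. PERK phosphorylation, Xbp1 splicing, ATF6 cleavage and ATF4 translation are not seen in 3′ counts, so the values below are mRNA levels.

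Library totals were 841974 to 886085 counts in DJ-1+/+ and 967751 to 1098125 in DJ-1-/- mice. A level of 3 counts, the lowest treated as detectable, is 2.73 to 3.56 cpm, allowing for counting error only. Park7, the gene of DJ-1, averaged 135 ± 15.7 cpm in the DJ-1+/+ group (SD, n = 4) and 20.4 ± 4.54 cpm in the DJ-1-/- group (SD, n = 5). The libraries held markers of their labelled tissue, at uneven levels. The summed cpm of 10 dopaminergic markers was 489 to 955 in DJ-1+/+ and 730 to 1013 in DJ-1-/- mice. Fitted values were higher in DJ-1-/- for 9 of the 10 and lower for 1, with a median log2 fold change of 0.34. Of the 10, 3 (Th, Slc6a3 and Pitx3) were higher at an unadjusted p under 0.05 by edgeR's quasi-likelihood test. Pitx3 was near the limit of detection, with 0 to 1 counts per DJ-1+/+ library and 1 to 6 per DJ-1-/- library. Slc6a3 was 36.8, 130, 23.3 and 30.5 cpm in DJ-1+/+ replicates 1 to 4 and 58.1 to 119 cpm in DJ-1-/- mice. Of the DJ-1+/+ libraries, 2 stood apart. Replicate 1 had 1521 summed cpm of 10 cerebellar neuron markers against 519 to 736 in the other DJ-1+/+ and 558 to 727 in the DJ-1-/- libraries, with 102 counts of Gabra6 against at most 2 elsewhere. Replicate 4 had 914 summed cpm of 10 choroid plexus markers, against 217 to 448 in the other 8 libraries. The labels used here do not give the animals' sex. Xist was at most 2 counts, and Y-linked Ddx3y at least 113, in 3 libraries: both of those DJ-1+/+ libraries and replicate 5 of DJ-1-/-. The other 6 had at least 146 counts of Xist and at most 4 of Ddx3y.

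In none of the 10 genes did a difference between the genotypes pass a test. By edgeR's quasi-likelihood test 0 of the 10 reached an unadjusted p under 0.05 and 0 an adjusted p under 0.05, and likewise 0 by DESeq2. Among all genes tested, 513 (2.83%) had an unadjusted p under 0.05 and 1, Park7 (0.00552%), an adjusted p under 0.05. The cpm of the DJ-1+/+ and DJ-1-/- mice overlapped for each of the 10, whereas 226 genes (1.25%) did not overlap. Trib3 was at the limit of detection in both genotypes and is given without a fold change. Of the other 9, the fitted log2 fold change (DJ-1-/- over DJ-1+/+) was above 0 for 4 and below 0 for 5. Its median was −0.01, against 0.01 over all genes tested, and 7 of the 9 were within 0.25 of 0. In bulk tissue, fewer cells of a type and less RNA per cell cannot be told apart, so a level here is that of the whole piece of midbrain. Exact two-sided permutation tests of single genes gave p between 0.127 and 1.0, where the smallest that 9 mice split into 4 and 5 can give is 0.0159.

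**Figure D1:**
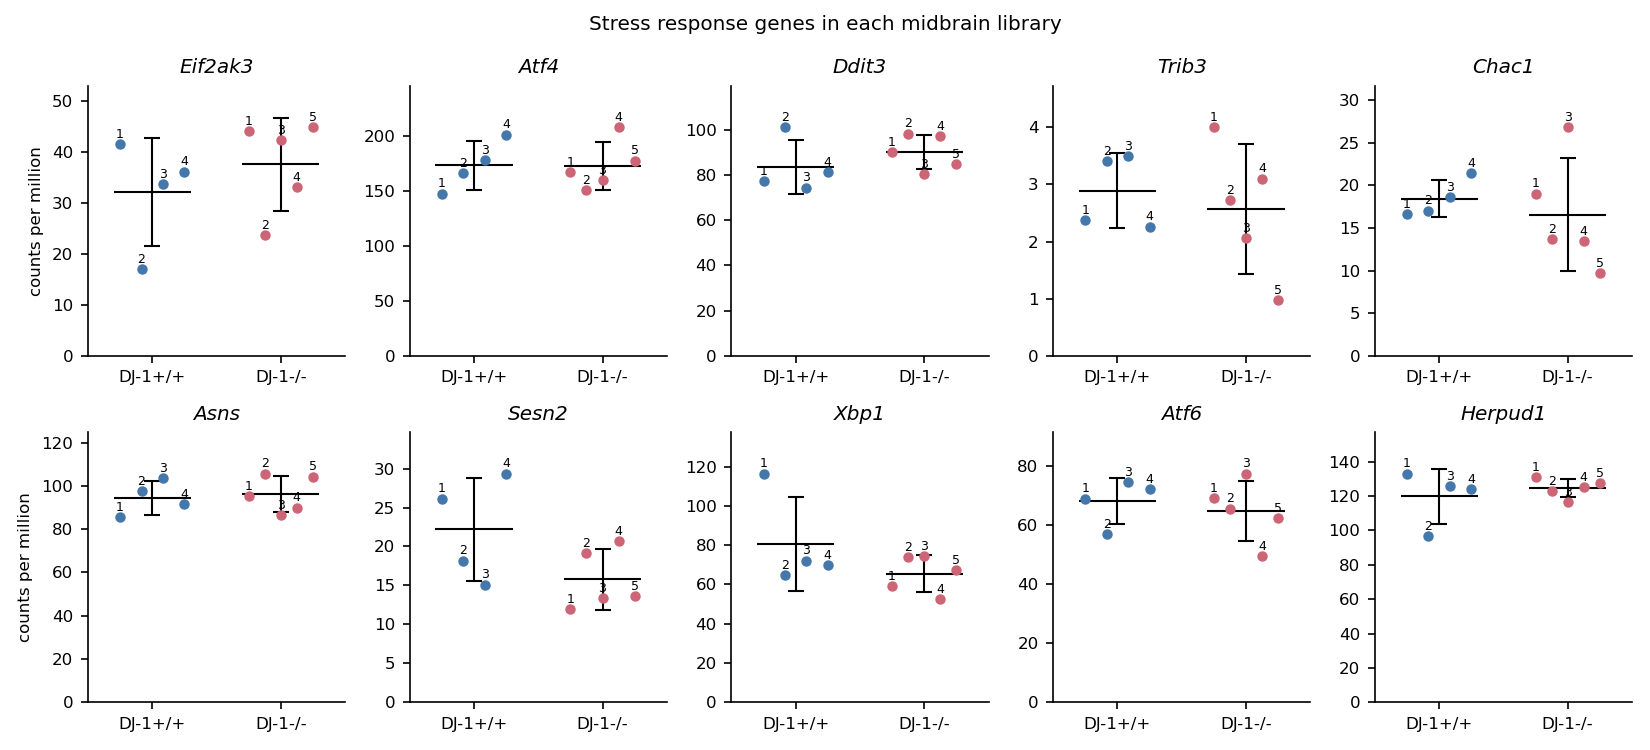
Counts per 1000000 (vertical axes, from 0) of the 10 genes in each library, by genotype (horizontal axes). Points are libraries numbered by replicate, and black bars are the mean ± SD (n = 4 and n = 5); the genotypes overlap in every panel, and DJ-1+/+ replicate 1 is far above the others for Xbp1 at 116 cpm.

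The 10 genes spanned a wide range of levels, and for 7 of the 9 neighbouring pairs the order held in at least 7 of 9 libraries. Mean cpm over the 9 libraries was 173 for Atf4, 122 for Herpud1, 95.5 for Asns, 87.2 for Ddit3, 72.3 for Xbp1 and 66.3 for Atf6. Below these came Eif2ak3 at 35.1, Sesn2 at 18.6, Chac1 at 17.4 and Trib3 at 2.71 cpm. The ranges over the 9 libraries did not overlap between Atf4 and Herpud1, between Atf6 and Eif2ak3, or between Chac1 and Trib3. Neighbours that could not be ordered were Xbp1 and Atf6, with Xbp1 higher in 5 of 9 libraries, and Sesn2 and Chac1, with Sesn2 higher in 6 of 9. Asns exceeded Ddit3 in 7 of 9 libraries, and Herpud1 exceeded Asns, Ddit3 exceeded Xbp1 and Eif2ak3 exceeded Sesn2 in 8 of 9. Targets of ATF4 lay at both ends of the order, with Herpud1 and Asns directly below Atf4 and Chac1 and Trib3 at the bottom.

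Of the sensor genes Eif2ak3 and Atf6, Eif2ak3 (PERK, chr6:70844515-70905245, plus strand, GRCm38) varied more. The gene of IRE1, Ern1, is not among the 10 and is given below. The cpm of Eif2ak3 was 41.6, 17.1, 33.7 and 36.1 in DJ-1+/+ replicates 1 to 4 and 44.0, 23.7, 42.3, 33.1 and 44.8 in DJ-1-/- replicates 1 to 5. Replicate 2 was the lowest library of each genotype. The Eif2ak3 log2 fold change was 0.22 (SE 0.25, 95% interval −0.30 to 0.75, adjusted p = 1.0 by edgeR's quasi-likelihood test, adjusted over all genes tested). It was 0.01 without DJ-1+/+ replicate 2, at 15 counts, and 0.37 without DJ-1+/+ replicate 1, the lowest and highest values with single libraries left out. With both DJ-1+/+ replicates 1 and 4 left out it was 0.56 (unadjusted p 0.0928), and with Xist in the model 0.42 (unadjusted p 0.0991). The interval of all 9 libraries ran from 0.81-fold to 1.69-fold.

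Atf6 (chr1:170704674-170867771, minus strand), the sensor that becomes a transcription factor when cut, had similar means in both genotypes. It stood at 68.9, 56.8, 74.5 and 72.2 cpm in DJ-1+/+ and at 69.1, 65.6, 77.4, 49.6 and 62.4 cpm in DJ-1-/- mice. The highest and the lowest library were both DJ-1-/-, replicates 3 and 4. The log2 fold change was −0.07 (SE 0.14, 95% interval −0.36 to 0.22), and it ran from −0.156 to −0.004 with single libraries left out. The SD was 0.887 times that given by counting alone in DJ-1+/+ and 1.27 times in DJ-1-/- mice.

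Xbp1 (chr11:5520659-5525893, plus strand), whose mRNA is the splicing substrate of IRE1, was the gene in which a single library stood farthest apart. Its cpm was 116, 64.8, 72.1 and 70.0 in DJ-1+/+ and 59.1, 73.8, 74.3, 52.7 and 67.2 in DJ-1-/- mice. Means were 80.8 ± 23.9 (SD, n = 4) and 65.4 ± 9.40 cpm (SD, n = 5). The other 3 DJ-1+/+ libraries lay within the range of the DJ-1-/- libraries, and replicate 1, with 98 counts, lay above all. The log2 fold change was −0.30 (SE 0.17, 95% interval −0.65 to 0.06), with an unadjusted p of 0.0933 and an adjusted p of 1.0 by edgeR's quasi-likelihood test. Without DJ-1+/+ replicate 1 it was −0.07 (unadjusted p 0.607), and without DJ-1+/+ replicate 2, the lowest of its genotype, it was −0.40 (unadjusted p 0.0354). Replicate 1 is the library with the raised cerebellar neuron markers, and the part of those cells in its Xbp1 level was not tested. Among the 6 libraries with Xist, the Xbp1 mean was 68.5 cpm over 2 DJ-1+/+ libraries and 65.0 cpm over 4 DJ-1-/- libraries. Among the 3 without Xist it was 93.2 cpm over 2 DJ-1+/+ libraries, one of them replicate 1, and 67.2 cpm for the single DJ-1-/- one. When Xist was added to the model, the Xbp1 log2 fold change was −0.17 (unadjusted p 0.306). Xbp1 was 1.19 ± 0.342 times Atf6 for DJ-1+/+ (SD, n = 4) and 1.02 ± 0.108 times for DJ-1-/- (SD, n = 5), with a two-sided p of 0.381 by the exact permutation test.

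Atf4 (chr15:80255184-80257541, plus strand), the transcription factor on which the eIF2alpha kinases converge, had nearly the same mean in both genotypes. It was at 147, 166, 178 and 201 cpm in DJ-1+/+ and at 167, 150, 160, 208 and 177 cpm in DJ-1-/- mice. Those are 173 ± 22.5 (SD, n = 4) and 172 ± 22.1 (SD, n = 5). In both genotypes replicate 4 was the highest. The fitted change on the log2 scale was −0.01 (SE 0.10), and its 95% interval, −0.23 to 0.21, covers 0.853-fold to 1.16-fold. The mice of one genotype differed more than counting alone allows, with an SD 1.59 times the counting SD in DJ-1+/+ and 1.69 times in DJ-1-/- mice.

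Of the 10 genes, 4 carry the letters of an ATF4-type element (TGATGNAA on either strand, where N is any base) in their promoter window, from 250 bases before to 50 bases after the annotated start. Windows and starts are those of RefSeq (GRCm38.p6), which gave a window for 9 of the 10 genes, all except Atf6. The letters were in 4 of these 9 windows and in 3.97% of the 32851 windows of all genes. All 9 windows were searched, and ATF4 is known to act on the 4 genes with a match. No match was found in the windows of Ddit3, which ATF4 also activates, or of Sesn2, Xbp1, Eif2ak3 and Atf4. Each is written 5′ to 3′ on the strand of its gene, with the element, or its reverse complement, in capitals.
Chac1: ccctgccgTTGCATCActcctgcc
Trib3: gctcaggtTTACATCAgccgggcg
Asns: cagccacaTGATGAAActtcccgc
Herpud1: acggcgggTTGCATCAgcccgcac
The Chac1 match (chr2:119351041-119351064, plus strand) begins 193 bases before the start and that of Herpud1 (chr8:94386309-94386332, plus strand) 112 bases before it. In Asns (chr6:7693217-7693240, minus strand) the element begins 23 bases before the start, on the gene's own strand. In the Trib3 stretch (chr2:152344031-152344054, minus strand) the element begins 14 bases after the first base of the RefSeq start. Positions given with the 4 matches are those of the printed 24 bases, and distances are those of the 8-base element. These distances are from RefSeq starts, which differ from the GENCODE positions given with each gene. By GENCODE, the Trib3 gene starts at 152344032 on the minus strand, and the element lies before it. The Asns gene starts at 7693254 on the minus strand, and its element lies inside the gene. The ER stress response element, CCAAT and CCACG with 9 bases between them, was in 0 of the 9 windows and in 0.119% of all windows. TGACGTGG, the core of the unfolded protein response element, was in 0 of 9 and in 0.676% of all. These are matches of letters in a 300-base window and do not show binding.

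None of the 4 genes with the element passed the test between the genotypes. Chac1, whose enzyme breaks down glutathione (chr2:119351229-119354381, plus strand), was at 16.6, 17.1, 18.6 and 21.4 cpm in DJ-1+/+ mice. In DJ-1-/- mice it was at 19.0, 13.7, 26.8, 13.4 and 9.74 cpm. The DJ-1-/- libraries held both the highest and the lowest value, and the log2 fold change was −0.16 (SE 0.29, 95% interval −0.78 to 0.45). It was −0.40 without DJ-1-/- replicate 3 and −0.03 without DJ-1-/- replicate 5. With 10 to 26 counts per library, the DJ-1+/+ SD was 0.473 times the counting SD and the DJ-1-/- SD 1.65 times.

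Asns, asparagine synthetase (chr6:7675169-7693254, minus strand), was among the most even of the 10. Its cpm was 85.5, 97.7, 104 and 91.4 in DJ-1+/+ and 95.1, 106, 86.7, 89.9 and 104 in DJ-1-/- mice. The ranges nearly coincide, and the SD within each genotype was below the counting SD (0.747 and 0.865 times). Its log2 fold change was 0.03 (SE 0.10, 95% interval −0.17 to 0.23).

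Herpud1 (chr8:94386438-94395377, plus strand) encodes an ER membrane protein that brings misfolded proteins to degradation. It was at 133, 96.6, 125.6 and 124 cpm in DJ-1+/+ and at 131, 123, 117, 125 and 128 cpm in DJ-1-/- mice. DJ-1+/+ replicate 2 was the lowest of all 9 and the 5 DJ-1-/- libraries were close together, with an SD of 5.46 cpm against 15.98 cpm in DJ-1+/+. Its log2 fold change was 0.06 (SE 0.09, 95% interval −0.14 to 0.26), and without DJ-1+/+ replicate 2 it was −0.04. Gm15890 lies on the opposite strand of Herpud1, and reads of both cannot be told apart unless strand was used in counting, which the sources used here do not state.

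Trib3, a pseudokinase that restrains ATF4 and CHOP (chr2:152337422-152344032, minus strand), was hardly detected. It had 2, 3, 3 and 2 counts in DJ-1+/+ and 4, 3, 2, 3 and 1 counts in DJ-1-/- mice, 23 counts in all. One library, DJ-1-/- replicate 1, was above 3 counts, so that a difference in Trib3 was not detectable at this depth.

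Ddit3, which encodes CHOP, a factor of the cell-death arm (chr10:127290774-127296288, plus strand), was slightly higher on average in DJ-1-/- mice. The cpm was 77.2, 101, 74.5 and 81.3 in DJ-1+/+ and 90.1, 98.4, 80.5, 97.1 and 84.8 in DJ-1-/- mice. DJ-1+/+ replicate 2 was the highest of all 9 and the other 3 DJ-1+/+ libraries were below 4 of the 5 DJ-1-/- libraries. The fitted log2 fold change was 0.11 (SE 0.11, 95% interval −0.12 to 0.34, adjusted p = 1.0 by edgeR's quasi-likelihood test), and with single libraries left out it ran from 0.06 (without DJ-1+/+ replicate 3) to 0.21 (without DJ-1+/+ replicate 2, unadjusted p 0.0823). It was 0.04 with both DJ-1+/+ replicates 1 and 4 left out and 0.07 with Xist in the model. Set against its activator, Ddit3 was 0.489 ± 0.0965 times Atf4 (SD, n = 4) in DJ-1+/+ and 0.529 ± 0.0756 times (SD, n = 5) in DJ-1-/- mice. Exact two-sided permutation tests gave p = 0.524 for that ratio, 0.937 for Asns over Atf4 and 0.683 for Herpud1 over Atf4, before adjustment; with the Xbp1 to Atf6 ratio, 4 ratios were compared. The gene overlaps Mars and Gm4189 on the opposite strand, with the same limit as for Herpud1. GENCODE also holds another Ddit3 identifier within it on the same strand, which has no count in any library, and strand could not separate reads of these.

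Sesn2 (chr4:132492032-132510501, minus strand) encodes a stress-induced leucine sensor that restrains mTORC1, and it had the largest difference among the 9. Its cpm was 26.1, 18.2, 15.1 and 29.3 in DJ-1+/+ and 12.01, 19.1, 13.4, 20.7 and 13.6 in DJ-1-/- mice. Means were 22.2 ± 6.65 (SD, n = 4) and 15.8 ± 3.86 cpm (SD, n = 5). DJ-1+/+ replicates 1 and 4 lay above all DJ-1-/- libraries and DJ-1+/+ replicates 2 and 3 lay among them. The log2 fold change was −0.49 (SE 0.27, 95% interval −1.06 to 0.08), with an unadjusted p of 0.0878 and an adjusted p of 1.0 by edgeR's quasi-likelihood test. With both replicates 1 and 4 left out, it was −0.07 (unadjusted p 0.828). Without DJ-1+/+ replicate 3 it was −0.64 (unadjusted p 0.0372) and without DJ-1-/- replicate 4 it was −0.61 (unadjusted p 0.0485). Replicates 1 and 4 are the libraries with raised cerebellar and choroid plexus markers and without Xist, and the part of either in the Sesn2 level was not tested. When Xist, as log2 cpm, was added to the model, the log2 fold change was −0.34 (unadjusted p 0.257). Within the 6 libraries that have Xist, Sesn2 averaged 16.7 cpm over 2 DJ-1+/+ libraries and 16.3 cpm over 4 DJ-1-/- libraries. Where Xist was lacking it averaged 27.7 cpm over 2 DJ-1+/+ libraries and was 13.6 cpm for the single DJ-1-/- one. Sesn2 lies 18.4 Mb from Park7 on the same chromosome. Gm12981 lies within it on the same strand and has no count in any library.

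**Figure D2:**
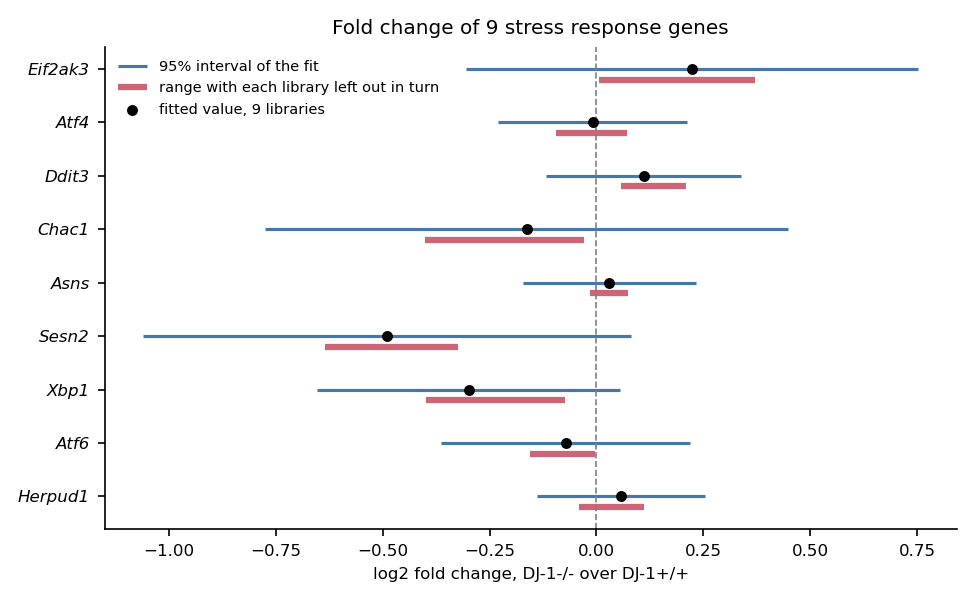
Log2 fold change of DJ-1-/- over DJ-1+/+ (horizontal axis) for the 9 genes above the limit of detection (vertical axis). Black points are fitted values, blue lines the 95% interval and red bars the range with single libraries left out; every interval includes 0, and that of Chac1, −0.78 to 0.45, is the widest.

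**Figure D3:**
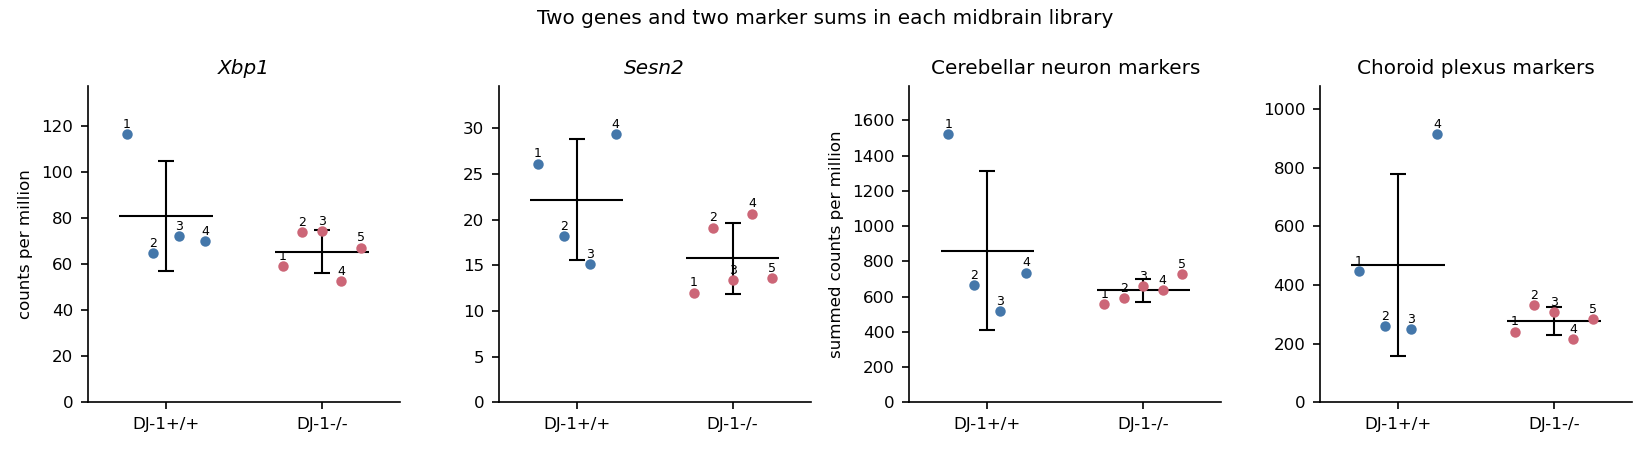
Counts per 1000000 of Xbp1 and Sesn2, and the same summed over 10 cerebellar neuron and 10 choroid plexus markers, in each library (vertical axes, from 0) by genotype. Points are libraries numbered by replicate and black bars the mean ± SD (n = 4 and n = 5); DJ-1+/+ replicate 1 is highest for Xbp1 and the cerebellar markers, and replicate 4 for Sesn2 and the choroid plexus markers.

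The paralogs of the 10 genes lay close to a log2 fold change of 0. All 11 were tested, 6 above 0 and 5 below, with 0 at an unadjusted p under 0.05 and log2 fold changes between −0.08 for Atf5 and 0.07 for Herpud2. The other eIF2alpha kinases are among them. Eif2ak1 (HRI, the kinase of haem and mitochondrial stress) stood at 125 ± 8.23 cpm for DJ-1+/+ (SD, n = 4) and 122 ± 9.07 cpm for DJ-1-/- (SD, n = 5). Eif2ak4 (GCN2, the amino acid sensor) was 52.2 ± 2.84 and 52.8 ± 5.64 cpm, and Eif2ak2 (PKR, the double-stranded RNA sensor) 16.7 ± 4.498 and 16.9 ± 2.17 cpm, in the same order. HRI thus had the highest counts of the 4 kinase mRNAs here. Atf6b, at 90.5 ± 3.17 and 89.0 ± 4.53 cpm, and Sesn3, at 122 ± 6.11 and 122 ± 12.7 cpm, were above Atf6 and Sesn2. The remaining 5, Sesn1, Trib1, Trib2, Chac2 and the ubiquitin-like Herpud2, had log2 fold changes between −0.02 and 0.07.

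Beyond the 10 genes, 193 genes of the same pathways were looked up in 8 lists that include the paralogs. Of the 188 that could be tested, 93 were higher in DJ-1-/- mice and 95 lower. Of the 188, 0 had an unadjusted p under 0.05 by edgeR's quasi-likelihood test and 0 by DESeq2, against 2.83% of all genes by edgeR. Their median log2 fold change was 0.00, and 174 of the 188 were within 0.25 of 0. The count of 0 depends on the libraries. It was 9 without DJ-1-/- replicate 4, 7 without DJ-1+/+ replicate 2, and 3 without DJ-1+/+ replicate 3 or without DJ-1-/- replicate 1, 3 or 5. It was 1 without DJ-1+/+ replicate 1 or 4.

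Of 19 genes of the eIF2 cycle, 11 were higher and 8 lower, with a median log2 fold change of 0.02. Eif2b5, the catalytic subunit of the exchange factor that reloads eIF2, stood at 105 ± 8.94 cpm for DJ-1+/+ (SD, n = 4) and 89.5 ± 12.6 cpm for DJ-1-/- (SD, n = 5; log2 fold change −0.23, SE 0.11, unadjusted p 0.0545). Ppp1r15a, the stress-induced subunit of the eIF2alpha phosphatase (GADD34), was 21.4 ± 3.98 and 17.1 ± 2.71 cpm (unadjusted p 0.193), and Ppp1cb, a catalytic subunit, 133 ± 15.97 and 147 ± 7.98 cpm (unadjusted p 0.126). The most abundant gene of the list, Eif2s2, was at 202 ± 14.04 and 206 ± 16.4 cpm.

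Sensors and partner factors gave 5 higher and 14 lower of 19 tested, with a median log2 fold change of −0.05. Crebrf, a regulator of the CREB3 factors, was the most abundant, 206 ± 8.18 (SD, n = 4) and 199 ± 14.03 cpm (SD, n = 5). The smallest p in the list was that of Ern2, the IRE1 paralog of epithelia, which had 2, 7, 1 and 3 counts in DJ-1+/+ and 4, 6, 10, 9 and 10 in DJ-1-/- mice (unadjusted p 0.0609). Those counts are near the limit of detection. Ern1, the gene of IRE1, was at 23.3 ± 4.05 cpm for DJ-1+/+ (SD, n = 4) and 24.3 ± 7.26 cpm for DJ-1-/- (SD, n = 5). The genotypes overlapped for Ern1, with a log2 fold change of 0.06 (SE 0.25, unadjusted p 0.818 by edgeR's quasi-likelihood test). Tmbim6, an ER membrane protein that tempers IRE1, was 159 ± 18.7 and 147 ± 11.8 cpm, and Cebpg, a dimer partner of ATF4, 81.0 ± 11.4 and 73.7 ± 13.5 cpm.

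Further ATF4 targets split evenly, 15 higher and 16 lower of 31 tested, with a median log2 fold change of −0.01. Mthfd2, an enzyme of mitochondrial folate metabolism, had the smallest p of the list. It stood at 69.4 ± 8.22 cpm for DJ-1+/+ (SD, n = 4) and 79.2 ± 7.37 cpm for DJ-1-/- (SD, n = 5; log2 fold change 0.20, SE 0.11, unadjusted p 0.107). Ddit4, an mTORC1 inhibitor like Sesn2, was 71.0 ± 6.66 and 79.1 ± 5.41 cpm, and Aldh18a1, of proline synthesis, 13.3 ± 2.74 and 17.9 ± 6.82 cpm. The autophagy receptor Sqstm1 was the most abundant at 200 ± 13.6 and 208 ± 13.8 cpm. Aminoacyl-tRNA synthetases, which ATF4 also raises, were 10 higher and 10 lower of 20, with a median of 0.00. Tars was 85.4 ± 6.23 and 73.1 ± 9.13 cpm (unadjusted p 0.0680), Wars 48.8 ± 4.94 and 58.4 ± 12.1 cpm, Rars 89.9 ± 8.47 and 98.9 ± 2.46 cpm, and Nars, the most abundant, 192 ± 6.34 and 193 ± 12.99 cpm.

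The genes that ATF6 and XBP1 are known to raise were also near level. Of 32 ER chaperones and foldases, 12 were higher and 20 lower, with a median log2 fold change of −0.02. Hspa5, which encodes BiP, the main ER chaperone, was the most abundant of them. It was at 287, 256, 232 and 257 cpm in DJ-1+/+ and at 212, 238, 243, 265 and 223 cpm in DJ-1-/- mice. The genotypes overlapped, with a log2 fold change of −0.13 (SE 0.08, unadjusted p 0.124). Manf, a secreted ER stress protein that protects dopaminergic neurons, was 86.7 ± 9.98 cpm (SD, n = 4) and 74.0 ± 9.93 cpm (SD, n = 5), with an unadjusted p of 0.0774. Uggt1, which tags misfolded glycoproteins, was 113 ± 11.1 and 100 ± 5.57 cpm (unadjusted p 0.0735), while Sil1, the exchange factor of BiP, was 56.2 ± 7.93 and 67.3 ± 7.84 cpm (unadjusted p 0.0683).

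Of 30 genes of ER-associated degradation, 17 were higher and 13 lower, with a median log2 fold change of 0.01. Vcp, the segregase that pulls proteins from the ER, was 185 ± 13.2 cpm (SD, n = 4) and 200 ± 14.2 cpm (SD, n = 5). Its cofactor Ufd1 was 136 ± 8.67 and 123 ± 8.06 cpm (unadjusted p 0.0925). Tmub2, at 58.0 ± 9.70 and 67.3 ± 8.41 cpm, and Aup1, at 87.4 ± 3.99 and 97.3 ± 10.6 cpm, complete the named genes of that list. Translocon and signal peptide genes were 20 higher and 12 lower of 32 tested, with a median of 0.02. Srp9, of the signal recognition particle, had the smallest p of all 188. It was 112 ± 5.97 and 97.8 ± 11.6 cpm (log2 fold change −0.20, SE 0.10, unadjusted p 0.0507). Sec63 was 132 ± 8.39 and 119 ± 7.35 cpm, Srp72 162 ± 10.2 and 179 ± 21.1 cpm, and Sec62, the most abundant, 274 ± 28.9 and 277 ± 11.9 cpm.

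**Figure D4:**
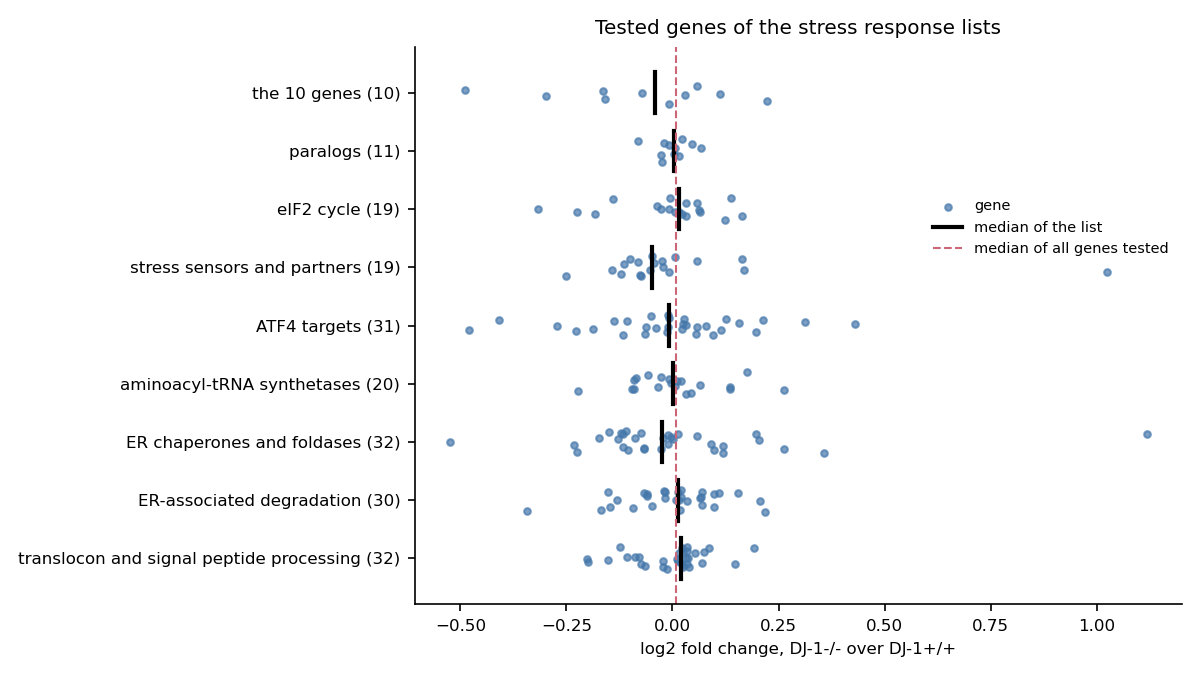
Log2 fold change of DJ-1-/- over DJ-1+/+ (horizontal axis) of every tested gene of the 10 genes, their paralogs and 7 further pathway lists (vertical axis, genes tested in brackets). Points are genes, black bars list medians and the dashed line the median of all genes tested (0.01); list medians lie between −0.05 and 0.02, and the points beyond 1 are Ern2 and Cdnf, both of few counts.

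Markers of other cells were read in the same libraries. The fitted value of all 10 choroid plexus markers was lower in DJ-1-/- mice, 6 at an unadjusted p under 0.05, and so was that of all 10 cerebellar neuron markers, 5 at that p. Hba-a2 of the 5 blood genes was also lower at that p. Over all genes tested, 2.83% were at that p in either direction. The choroid plexus sum was highest in DJ-1+/+ replicate 4. In the other DJ-1+/+ libraries it was 250 to 448 cpm, against 217 to 332 cpm in DJ-1-/- mice. The cerebellar sum was highest in DJ-1+/+ replicate 1. In the other DJ-1+/+ libraries it was 519 to 736 cpm, against 558 to 727 cpm in DJ-1-/- mice. Among the 8 astrocyte, 8 oligodendrocyte, 8 microglia, 6 endothelial and 9 immediate early genes, 0 had an unadjusted p under 0.05. After adjustment 0 of the marker genes were called by edgeR's quasi-likelihood test. The part of these shifts, or of the dopaminergic marker differences given above, in the levels of the 10 genes was not tested.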

How the data were processed

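For each mouse the authors deposited UMI counts per Ensembl gene as whole numbers without normalization. The submitters' processing notes name fastp 0.20.0, STAR 2.7.3a, featureCounts 2.0.0, UMI-tools 1.0.0 and GRCm38; annotation release and use of strand are not given in the sources used here. Counts were joined by identifier, with 0 for a gene not listed in a library. Symbols and positions are from GENCODE M21 (GRCm38) and promoter windows from RefSeq (GRCm38.p6). The test covered genes whose counts summed to 10 or more, and was run with edgeR 4.0.16 in R 4.3.3 (TMM, glmQLFit, glmQLFTest, genotype only, Benjamini-Hochberg over all genes tested). The standard error is the log2 fold change over the square root of F. cpm were compared by exact permutation tests in scipy 1.17.1. Replicates are separate mice, and pairs of libraries within a genotype differed beyond counting noise (chi-square per degree of freedom 1.07 to 2.27 over 16 pairs).

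The 10 genes, the pathway lists and the marker lists were chosen with earlier results of these data known. In each pathway list the genes named are the 3 with the smallest unadjusted p and the most abundant gene, and all paralogs could be named. Ern1 is given in addition, as the gene of IRE1. Alternatives were RLE size factors, library totals, no filter, filterByExpr, a block for the replicate number, Xist as covariate, counts thinned to 841974 per library, DESeq2 1.42.0, DJ-1+/+ replicates 1 and 4 left out together, and each library left out in turn. On simulated data, edgeR's test recovered 175 of the 200 genes given a log2 change of 1, among 17802 genes. Those 200 were drawn only from genes with higher mean counts than Trib3, Chac1 and Sesn2, so the recovery does not cover these. The simulated spread of each gene was that of the trend with level, not its own.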

Additional observations from a re-analysis of the deposited data

Results flagged for a closer look

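Xbp1 in DJ-1+/+ replicate 1, at 116 cpm, stood apart from the other 3 DJ-1+/+ libraries, at 64.8 to 72.1 cpm, by more than Dixon's 95% critical value for 4 samples. It was the 1 such library among 20 sets of values examined (10 genes in 2 genotypes), and chance gives about 1 in 20.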

How the results depend on the processing

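In all alternatives 0 of the 10 genes had an adjusted p under 0.05. The count of the 10 with an unadjusted p under 0.05 was 1 with no filter on low counts (Xbp1) and 0 to 1 with a library left out. Over all genes, 513 had an unadjusted p under 0.05; this was 802 with no filter, 338 with filterByExpr, 235 with DESeq2 and 338 to 732 with a library left out. An adjusted p under 0.05 was reached by 1 gene, by 36 with no filter and by 1 to 2 with a library left out. For the other pathway genes the 0 at an unadjusted p under 0.05 became 2 with RLE size factors, 1 with library totals, 2 with no filter, 1 with filterByExpr, 1 with Xist as covariate, 1 with thinned counts, 1 with both DJ-1+/+ replicates 1 and 4 left out and 0 to 9 with a library left out. Log2 fold changes near 0 changed sign. Atf4 (−0.009) was 0.001 with no filter, 0.003 with the Xist covariate, 0.005 without both replicates and −0.095 to 0.071 with a library left out. Asns (0.030) was −0.012 with thinned counts, −0.057 without both replicates and −0.014 to 0.073 with a library left out. Herpud1 (0.058) was −0.040 to 0.112 with a library left out. The cause was not tested.

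The labels do not say whether replicate numbers pair the mice. Deviations of same-numbered libraries correlated at 0.29, 0.041, −0.119 and −0.186, and those of differently numbered libraries at −0.369 to 0.545. These correlations cannot show whether equal numbers share a cage or a day. With the replicate number as a block, 0 of the 10 genes and 3 other pathway genes (Slc7a11, Tars and Os9) had an unadjusted p under 0.05, 10 genes had an adjusted p under 0.05, and Asns was −0.014.

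With 4 mice against 5, and 10 to 26 counts of Chac1 or 12 to 26 of Sesn2 per library, changes within the printed intervals could not be told from none.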

Other observations

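Summed over the 10 genes, the level was 639 to 729 cpm in DJ-1+/+ and 676 to 693 cpm in DJ-1-/- mice, 696 ± 39.8 (SD, n = 4) against 686 ± 7.94 (SD, n = 5). The lowest library was DJ-1+/+ replicate 2, which was also the lowest of all 9 for Eif2ak3 and Herpud1 and the lowest DJ-1+/+ library for Xbp1 and Atf6, while it was the highest for Ddit3. This spread was picked out after the values were seen and was not tested.

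Nupr1, a small stress-induced chromatin protein also chosen after its values were seen, had 8 counts in each of DJ-1+/+ replicates 1 and 4 and 24 and 25 in DJ-1+/+ replicates 2 and 3. In DJ-1-/- mice it had 17, 31, 25, 15 and 19 counts. The low libraries are the same ones in which Sesn2 was high, and the DJ-1-/- library without Xist, replicate 5, had 19.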
